A study of Mus musculus with 4 samples.

Results

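The sarcomere, Z-disc and M-band genes of P7 mouse hearts were read from RNA-seq counts of hearts that overexpressed *miR-128* and of control hearts. They are 34 genes, taken by symbol as structural genes of the thin and thick filaments, titin and the M-band, the Z-disc, the desmin and filamin scaffold, and the factors that assemble and turn over sarcomere proteins. Genes that switch between fetal and adult isoforms, such as the myosin heavy chains and cardiac actin, were not members. All 34 were found among the 24454 genes of the count table, and all 34 passed the filter on low counts that left 14266 genes to test.

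The study compared hearts of control mice (Ctrl, libraries WH7 and WH8) with hearts of *miR-128* transgenic mice (miR-128OE, libraries WH9 and WH10), all at postnatal day 7. As the study's methods describe the lines, Ctrl mice carried *miR-128* under a tetracycline-responsive promoter at the Rosa26 locus (miR-128TetRE), and miR-128OE mice carried the same allele together with the tetracycline transactivator tTA under the *α-MHC* promoter, which is active in cardiomyocytes (CMs). Both groups were kept on a C57BL/6 background. The transactivator was present in miR-128OE hearts and not in Ctrl hearts, so its own effect and that of *miR-128* cannot be told apart here. The labels do not say whether libraries came from separate animals or from pools, so the p-values measure the spread between these libraries.

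The sarcomere is the contractile unit of striated muscle. Thin filaments of actin, with tropomyosin and troponin along them, slide past thick filaments of myosin. The thin filaments are anchored at the Z-disc, where α-actinin crosslinks them, and the thick filaments are held in register at the M-band. Titin spans from the Z-disc to the M-band as an elastic filament. Desmin filaments tie the Z-discs of neighboring myofibrils to each other and to the cell membrane. In the heart, mutations in many of these genes cause hypertrophic or dilated cardiomyopathy, and new sarcomeres are added as CMs enlarge after birth.

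Library totals ranged from 8096870 to 14359838 counts. Counts were scaled with TMM factors and are given as normalized counts, that is counts at a common library size, or as CPM, the TMM-scaled share of a library's counts. The member genes took 5.05% to 5.83% of the counts of a library. Of the genes of the overexpressed miRNA, *Mir128-1* was at 0 throughout, and *Mir128-2* was at 0 in both Ctrl hearts and had 2 and 10 reads in WH9 and WH10, too few to test. Mature *miR-128* was not analysed here. Condition coincided with sex: raw counts of *Xist* were 14543 and 11339 for Ctrl, against 94 and 132 for miR-128OE, and the Y-linked *Ddx3y* had 13 and 7 against 1442 and 1768, so sex and genotype cannot be told apart in any result below. Of 18 CM markers from outside the sarcomere, all of which passed the filter, 15 rose, 2 fell and 1 did not pass the test, with a median log2 fold change of 0.74. Their summed level was 13520 and 14930 CPM in Ctrl and 25080 and 23280 CPM in miR-128OE libraries. In bulk hearts, a change in the number of CMs and a change in RNA per CM cannot be told apart. Of the other marker lists, 1 of 9 fibroblast markers rose, 2 of 8 endothelial markers rose and 2 fell, 1 of 6 smooth muscle markers rose and 1 fell, 0 of 6 macrophage markers and 0 of 8 atrial markers passed the test, and 1 of the 3 tested erythroid markers rose. The summed fibroblast level was 10360 and 6699 CPM in Ctrl and 9181 and 9898 CPM in miR-128OE libraries. Skeletal muscle markers summed to between 25.9 and 36.6 CPM, with *Myod1*, *Myf5* and *Pax7* at 0 in every library and 1 of the 5 tested markers lower.

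The sequence that defines the experiment is mature *miR-128-3p*, shown here with its seed, bases 2 to 8, in capitals (RefSeq, GRCm38.p6). It is encoded at chr1:128202404-128202424 on the plus strand by *Mir128-1* and at chr9:112118644-112118664 on the minus strand by *Mir128-2*.
miR-128-3p: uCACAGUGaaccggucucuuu
A miRNA pairs through its seed with the 3′UTR of a target mRNA, most often lowering its level. Matches were searched in 1 3′UTR per member, the longest annotated (GENCODE M21, GRCm38), as 7mer-m8 sites (CACTGTG) or 7mer-A1 sites (ACTGTGA). A 7mer-m8 site followed by A is called an 8mer. Of the 34 members, 6 (17.6%) carried 8 sites in all, against 31.0% of the 13495 tested genes with an annotated 3′UTR. The 3′UTRs of the members were shorter, with a median of 593 nt against 1198 nt. The 8 sites shown are the matches of these kinds in the 3′UTRs searched. Other 3′UTRs of the members, their coding sequences and other kinds of site were not searched. Capitals mark the matching bases, to which the coordinates refer, and each site lies in the last exon of its transcript.
Tcap 7mer-m8, chr11:98384569-98384575, plus strand: tcagactcCACTGTGtctgtctc
Nebl 7mer-A1, chr2:17347231-17347237, minus strand: tgcctctgACTGTGActtgcagc
Nebl 8mer, chr2:17344020-17344026, minus strand: ttcctctaCACTGTGaatcttaa
Flnc 7mer-A1, chr6:29461455-29461461, plus strand: gggcagagACTGTGAaataaggg
Xirp1 7mer-m8, chr9:120014057-120014063, minus strand: tcaccctgCACTGTGtccctcca
Xirp2 8mer, chr2:67525948-67525954, plus strand: ttctctaaCACTGTGaaaatcac
Xirp2 7mer-m8, chr2:67526282-67526288, plus strand: cactcaggCACTGTGggggaatg
Unc45b 7mer-A1, chr11:82942787-82942793, plus strand: ggtcctgaACTGTGAagagtcgt
None of these 6 genes was called lower in miR-128OE hearts, beside 15% of all tested genes. *Flnc*, *Xirp1* and *Xirp2* rose, and *Tcap* (log2 fold change 0.19), *Nebl* (0.24) and *Unc45b* (−0.11) did not pass the test. The 2 members that fell, *Ttn* and *Synpo2l*, carried 0 sites. Counts of 6 and 2 genes are too small to be set apart from the shares among all tested genes. Direct binding was not tested.

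Most of the sarcomere genes that differed were higher in miR-128OE hearts. In the quasi-likelihood test of edgeR, adjusted over all tested genes by the Benjamini-Hochberg method, 19 of the 34 members rose (55.9%) and 2 fell (5.88%) at an adjusted p-value under 0.05, and 13 did not pass the test. Among all tested genes, 16.5% were called higher and 15% lower, 31.5% in all. The members were chosen with earlier results of these data known, so the shares are a description. With total counts in place of TMM, the share of higher calls among all called genes was 35.3% rather than 52.3%, and 19 members were higher and 4 lower. The median log2 fold change (log2FC, with its standard error as SE) was 0.43 for the members and −0.01 for all tested genes. Single members ranged from −0.34 for *Ttn* to 1.12 for *Mypn*. Both miR-128OE libraries lay above both Ctrl libraries for 25 members and below them for 4, and the groups overlapped for 5, whereas such complete separation upward was seen for 33.7% and downward for 34.4% of all tested genes. Summed over the members, the level was 48570 and 54160 CPM in Ctrl and 60750 and 59800 CPM in miR-128OE libraries. By role, the median was highest in the desmin, filamin and Xin group, whose 6 genes all rose, and lowest in the titin and M-band group, of which 0 of 3 rose and 1 fell. A rise was not particular to the sarcomere. Of the 18 CM markers from outside it, 15 rose and 2 fell, with a median log2 fold change of 0.74.

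**Figure D1:**
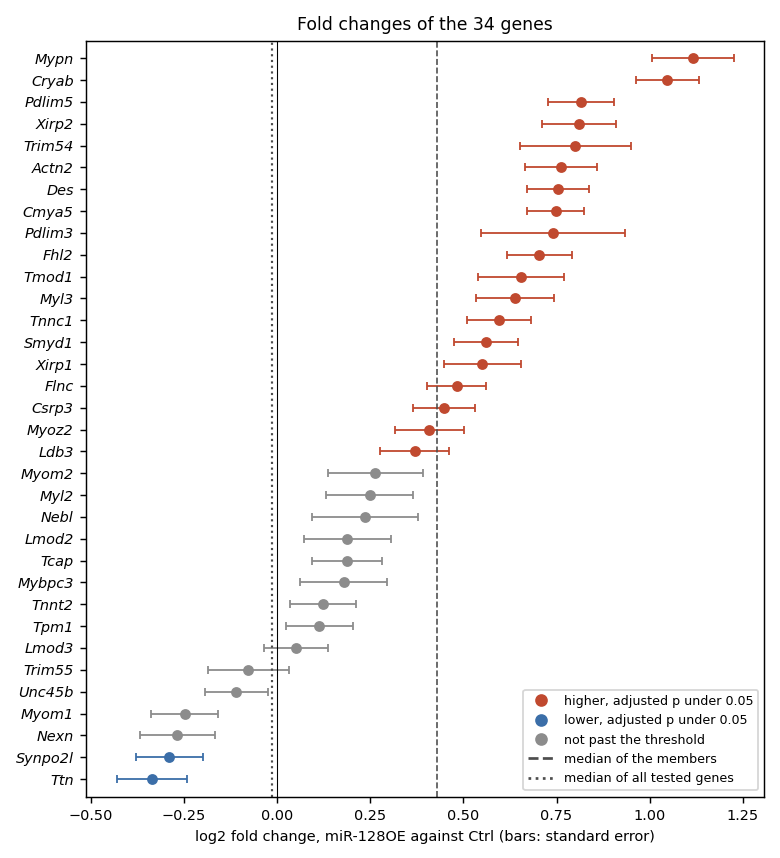
Log2 fold change of each of the 34 genes in miR-128OE against Ctrl hearts (n = 2 libraries each), with bars of 1 standard error and color by the call of edgeR's quasi-likelihood test. The genes run from *Ttn* at −0.34 to *Mypn* at 1.12, and the dashed line, the median of the members at 0.43, lies to the right of the dotted line, the median of all tested genes at −0.01.

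Levels were compared between genes per kilobase of exon (FPKM, computed here as TMM-scaled CPM per kilobase). The sarcomere genes covered a wide range. *Myl2*, the ventricular regulatory light chain of myosin, was the most abundant, with 6806 and 8604 FPKM in Ctrl and 9126 and 9180 FPKM in miR-128OE libraries. *Tnnt2*, cardiac troponin T, followed with 6949 and 7216 FPKM in Ctrl and 7758 and 7679 FPKM in miR-128OE libraries, so in Ctrl hearts the order of these neighbors differed between the libraries. *Nebl*, which encodes nebulette of the Z-disc, was the lowest, between 2.01 and 2.83 FPKM over the 4 libraries. Long scaffold genes were also low on this scale, with *Cmya5* at 7.61 and 7.64 FPKM in Ctrl and 12.9 and 12.8 FPKM in miR-128OE libraries. By counts rather than per length, *Myl2*, *Tnnt2*, *Tpm1*, *Ttn* and *Myl3* held 70.8% and 70.5% of all member counts in Ctrl and 67.7% and 67.8% in miR-128OE libraries. The share of *Ttn* alone was 12.3% and 12.2% in Ctrl and 8.26% and 8.25% in miR-128OE libraries, and that of *Myl3* was 9.16% and 9.77% against 12.6% and 12.6%.

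**Figure D2:**
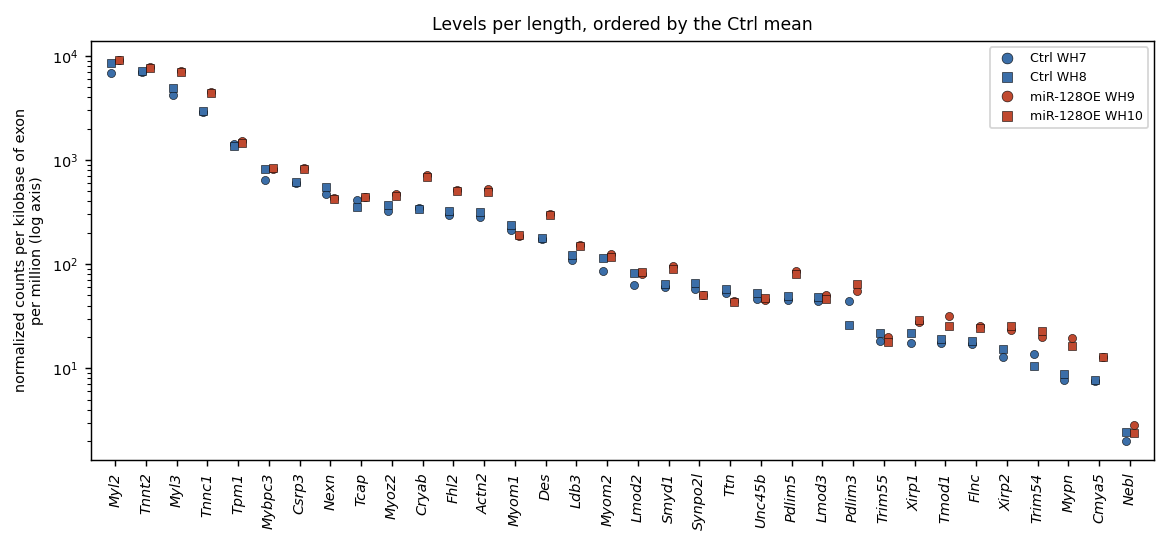
Levels of the 34 genes per kilobase of exon (FPKM) in each of the 4 libraries, on a log axis, ordered from left to right by the Ctrl mean. *Myl2* stands highest and *Nebl* lowest, and the gap between Ctrl (blue) and miR-128OE (red) points is small beside the range between genes.

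In the thin filament, 2 of 6 genes rose and 0 fell. *Tnnc1*, which encodes the calcium-binding subunit of cardiac troponin, had 24619 and 25036 normalized counts in Ctrl and 38044 and 37012 in miR-128OE libraries. Its log2FC was 0.60 (SE 0.09, edgeR adjusted p = 0.00115). *Tmod1* encodes tropomodulin, which caps the pointed ends of thin filaments, and had 649 and 709 normalized counts in Ctrl and 1187 and 951 in miR-128OE libraries. The log2FC was 0.66 (SE 0.11, edgeR adjusted p = 0.00273). *Tnnc1* rose clear of the spread between replicates. For *Tmod1* the groups did not overlap, but its miR-128OE pair was the least alike of all members, with an absolute log2 ratio of 0.321. *Tnnt2*, the troponin subunit that binds tropomyosin, had 103418 and 107396 normalized counts in Ctrl and 115460 and 114289 in miR-128OE libraries. These libraries did not overlap, but the log2FC was 0.12 (SE 0.09, edgeR adjusted p = 0.317). *Tpm1*, which encodes tropomyosin, had 79349 and 76740 normalized counts in Ctrl and 86314 and 82547 in miR-128OE libraries, and a log2FC of 0.11 (edgeR adjusted p = 0.364). The leiomodins *Lmod2* and *Lmod3*, which act at the same filament ends and favor elongation, overlapped between the groups. *Lmod2* had 1453 and 1901 normalized counts in Ctrl and 1856 and 1953 in miR-128OE libraries (log2FC 0.19, edgeR adjusted p = 0.25), and *Lmod3* had a log2FC of 0.05 (edgeR adjusted p = 0.692). Reads can be shared between *Tpm1* and the other tropomyosin genes, since how multi-mapped reads were treated is not given.

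In the thick filament, 1 of 3 genes rose and 0 fell. *Myl3*, the essential light chain of the ventricle, rose from 52440 and 62337 normalized counts in Ctrl to 90213 and 88603 in miR-128OE libraries. Its log2FC was 0.64 (SE 0.10, edgeR adjusted p = 0.00201). *Myl2* had 99697 and 126020 normalized counts in Ctrl and 133674 and 134461 in miR-128OE libraries, with a log2FC of 0.25 (SE 0.12, edgeR adjusted p = 0.137). The miR-128OE libraries were nearly equal, whereas the Ctrl libraries were apart by more than the distance from the higher of them to either miR-128OE library. Exons of *Myl2* overlap those of *Ccdc63* on the other strand, whose raw counts were at most 336. *Mybpc3*, myosin-binding protein C and a common site of mutation in hypertrophic cardiomyopathy, showed the same order, with 31328 and 39841 normalized counts in Ctrl and 39864 and 40684 in miR-128OE libraries. Its log2FC was 0.18 (SE 0.12, edgeR adjusted p = 0.278).

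Of titin and the M-band genes, 0 of 3 rose and 1 fell. *Ttn* (chromosome 2, 76703980 to 76982547, minus strand, GRCm38), which encodes titin, had 70310 and 77734 normalized counts in Ctrl and 59127 and 58151 in miR-128OE libraries. It fell by 0.34 on the log2 scale (SE 0.09, edgeR adjusted p = 0.0228). With 113588 nt of exon, *Ttn* was 1 of only 3 tested genes over 50000 nt, and long genes were more often called lower than genes in general: of the 439 tested genes over 10000 nt of exon, 43 were called higher and 129 (29.4%) lower, against 15% of all tested genes, and their median log2FC was −0.14. When an offset for gene length and GC content was added, the log2 fold change of *Ttn* was 0.08 (edgeR adjusted p = 0.584), so its direction depends on that correction. The offset was fitted with few genes near the length of *Ttn*, and whether it holds there was not tested. Leaving out any 1 library kept the direction, with log2 fold changes from −0.406 to −0.258. Such fits leave 1 library in a group and take their spread from the other group, so only their fold changes are given.

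*Myom1*, which encodes the main myomesin crosslinking thick filaments at the M-band, had 14331 and 15752 normalized counts in Ctrl and 12556 and 12779 in miR-128OE libraries. Both miR-128OE libraries were lower, with a log2FC of −0.25 (SE 0.09, edgeR adjusted p = 0.0613), which did not pass the threshold. *Myom1* was called lower with upper-quartile factors, total counts, no filter on low counts or DESeq2's test. Its log2FC was −0.31 without WH7 and −0.18 without WH8. Exons of *Myom1* overlap those of *Myl12a* on the other strand, whose raw counts were 4793 and 2921 for Ctrl, against 6956 and 8285 for miR-128OE, and reads of the pair cannot be told apart without strand. *Myom2*, the fast myomesin, had 5114 and 6874 normalized counts in Ctrl and 7398 and 6989 in miR-128OE libraries (log2FC 0.26, edgeR adjusted p = 0.148).

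At the Z-disc, 8 of 12 genes rose and 1 fell. *Mypn* (chromosome 10, 63115795 to 63203952, minus strand), which encodes myopalladin, a scaffold that binds α-actinin and nebulette, had 530 and 601 normalized counts in Ctrl and 1331 and 1113 in miR-128OE libraries. This was the largest increase among the members, 2.17-fold, with a log2FC of 1.12 (SE 0.11, edgeR adjusted p = 0.00017). *Actn2*, the sarcomeric α-actinin itself, rose from 9969 and 11333 normalized counts to 18662 and 17457. The log2FC was 0.76 (SE 0.10, edgeR adjusted p = 0.000586).

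Several Z-disc members carry PDZ or LIM domains, which link α-actinin to signaling proteins. *Pdlim5* had 3639 and 4007 normalized counts in Ctrl and 6960 and 6501 in miR-128OE libraries (log2FC 0.82, SE 0.09, edgeR adjusted p = 0.000279). *Fhl2*, a LIM domain protein that also binds titin, had 6661 and 7217 in Ctrl and 11464 and 11141 in miR-128OE libraries (log2FC 0.70, SE 0.09, edgeR adjusted p = 0.000508). The replicates of both genes lay close together beside the gap between the groups. *Csrp3*, the muscle LIM protein, had 6592 and 6799 normalized counts in Ctrl and 9184 and 9093 in miR-128OE libraries (log2FC 0.45, edgeR adjusted p = 0.00355). *Ldb3*, which encodes cypher or ZASP, had 7812 and 8871 normalized counts in Ctrl and 10919 and 10635 in miR-128OE libraries, and a log2FC of 0.37 (edgeR adjusted p = 0.015). *Pdlim3*, the actinin-associated LIM protein, had 1019 and 598 normalized counts in Ctrl and 1262 and 1469 in miR-128OE libraries, and its Ctrl pair was the least alike of all members. Its log2FC of 0.74 (SE 0.19, edgeR adjusted p = 0.0177) became 0.43 without WH8 and 1.19 without WH7, and its adjusted p was 0.155 in DESeq2's test.

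Among the remaining Z-disc genes, *Myoz2*, which encodes calsarcin-1, an inhibitor of calcineurin, rose from 4501 and 5157 normalized counts to 6553 and 6262, with a log2FC of 0.41 (edgeR adjusted p = 0.00983). *Synpo2l* (chromosome 14, 20658946 to 20668354, minus strand), an actin-bundling protein of the Z-disc, was the other member that fell. It had 3113 and 3624 normalized counts in Ctrl and 2733 and 2776 in miR-128OE libraries, with a log2FC of −0.29 (SE 0.09, edgeR adjusted p = 0.0367). Its adjusted p rose to 0.0906 with the offset for length and GC content. Leaving out 1 library gave log2 fold changes from −0.395 to −0.173 for *Synpo2l*. *Nexn*, which encodes nexilin, an actin-binding protein, had 16116 and 18988 normalized counts in Ctrl and 14866 and 14285 in miR-128OE libraries. Both of the latter were lower (log2FC −0.27, edgeR adjusted p = 0.0708). *Nexn* was called lower with upper-quartile factors, total counts, no filter on low counts or DESeq2's test. Its log2FC was −0.38 without WH7 and −0.14 without WH8. *Tcap*, or telethonin, which joins titin molecules at the Z-disc, had 4646 and 3975 normalized counts in Ctrl and 4886 and 4933 in miR-128OE libraries (log2FC 0.19, edgeR adjusted p = 0.16). Its log2FC was 0.31 without WH7 and 0.083 without WH8. *Nebl* overlapped between the groups, with 245 and 295 in Ctrl and 345 and 289 in miR-128OE libraries (log2FC 0.24, edgeR adjusted p = 0.236).

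All 6 genes of the desmin, filamin and Xin group rose, with a median log2 fold change of 0.75. *Cryab* (chromosome 9, 50751325 to 50756636, plus strand), which encodes αB-crystallin, a small heat shock protein that protects desmin filaments, had 5240 and 5153 normalized counts in Ctrl and 10991 and 10493 in miR-128OE libraries. This was a 2.07-fold increase with a log2FC of 1.05 (SE 0.08, edgeR adjusted p = 6.7e-05). *Des*, desmin itself, had 6217 and 6395 normalized counts in Ctrl and 10717 and 10542 in miR-128OE libraries (log2FC 0.75, SE 0.08, edgeR adjusted p = 0.000287). In both genes the replicates lay close together beside the gap between the groups. *Cmya5*, which encodes myospryn, a desmin-binding protein, had 1063 and 1067 normalized counts in Ctrl and 1796 and 1781 in miR-128OE libraries (log2FC 0.75, SE 0.08, edgeR adjusted p = 0.000205). The Xin repeat proteins bind actin at the Z-disc and the intercalated disc. *Xirp2* had 1806 and 2148 normalized counts in Ctrl and 3309 and 3617 in miR-128OE libraries (log2FC 0.81, SE 0.10, edgeR adjusted p = 0.000482), and *Xirp1* rose from 1199 and 1488 to 1928 and 1996, with a log2FC of 0.55 (edgeR adjusted p = 0.004). *Flnc*, filamin C, which crosslinks actin at the Z-disc and the membrane, had 1823 and 1955 normalized counts in Ctrl and 2682 and 2591 in miR-128OE libraries (log2FC 0.48, edgeR adjusted p = 0.00204). *Cryab* shares exon bases with its neighbor *Hspb2* on the other strand, whose raw counts were 673 and 340 for Ctrl, against 835 and 903 for miR-128OE, fewer than *Cryab* in every library.

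**Figure D3:**
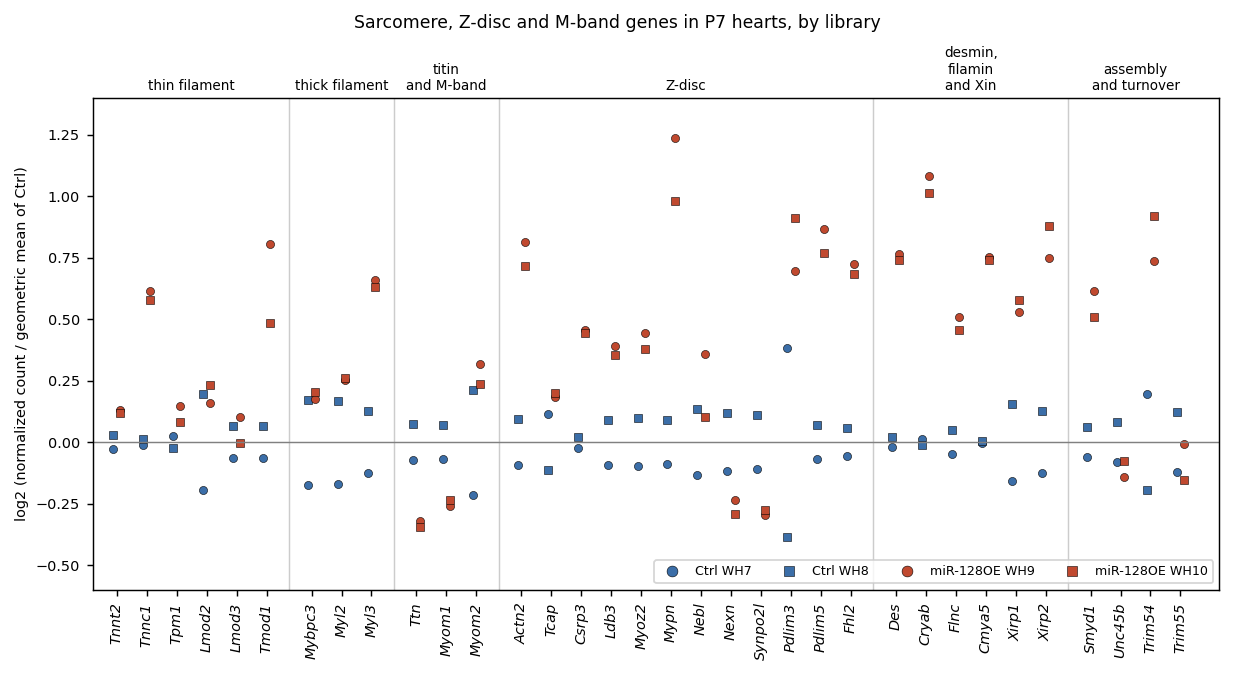
Normalized count of each gene in each library, as log2 of the ratio to the geometric mean of the Ctrl libraries, grouped by role; blue marks Ctrl and red miR-128OE, and each group has 1 circle and 1 square. In the desmin, filamin and Xin group all red points lie above all blue points, whereas *Ttn* and *Myom1* have both red points below, and *Pdlim3* has the widest Ctrl pair.

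Among the assembly and turnover factors, 2 of 4 rose. *Smyd1*, a CM-enriched lysine methyltransferase needed for thick filament assembly, had 3201 and 3482 normalized counts in Ctrl and 5109 and 4754 in miR-128OE libraries (log2FC 0.56, SE 0.09, edgeR adjusted p = 0.00143). *Unc45b*, a myosin chaperone, had 2339 and 2620 normalized counts in Ctrl and 2247 and 2345 in miR-128OE libraries, so the groups overlapped (log2FC −0.11, edgeR adjusted p = 0.354). *Trim54*, which encodes MuRF3, a ubiquitin ligase on microtubules and sarcomeres, had 231 and 177 normalized counts in Ctrl and 337 and 382 in miR-128OE libraries (log2FC 0.80, SE 0.15, edgeR adjusted p = 0.00381). *Trim55*, or MuRF2, overlapped between the groups, with 560 and 661 in Ctrl and 606 and 548 in miR-128OE libraries (log2FC −0.08, edgeR adjusted p = 0.625).

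Ratios of counts between partner genes within a library do not depend on library scaling. They were formed for 12 pairs, chosen after the values had been seen, so they are given as a description without a test. The ratio of *Actn2* to *Ttn* was 0.142 and 0.146 in Ctrl and 0.316 and 0.300 in miR-128OE libraries, a difference of 1.10 on the log2 scale, of which the part from *Ttn* depends on the correction for length and GC content: with that offset the log2FC was 0.78 for *Actn2* and 0.08 for *Ttn*. That of *Actn2* to *Nexn* was 0.619 and 0.597 against 1.25 and 1.22, so *Nexn* outnumbered *Actn2* in Ctrl and the reverse held in miR-128OE hearts. *Myl3* to *Myl2* went from 0.526 and 0.495 to 0.675 and 0.659, with a narrower Ctrl pair than either light chain alone. *Tnnc1* to *Tnnt2*, subunits of 1 complex, was 0.238 and 0.233 in Ctrl and 0.330 and 0.324 in miR-128OE libraries. *Smyd1* to *Unc45b* was 1.37 and 1.33 against 2.27 and 2.03, and *Myom2* to *Myom1* was 0.357 and 0.436 against 0.589 and 0.547. In all 12 pairs both miR-128OE ratios lay above both Ctrl ratios. That direction follows from putting the gene of the larger log2FC on top, and is not a result. With 2 libraries a group, a two-sided exact permutation test could not go below p = 0.333 for any ratio.

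**Figure D4:**
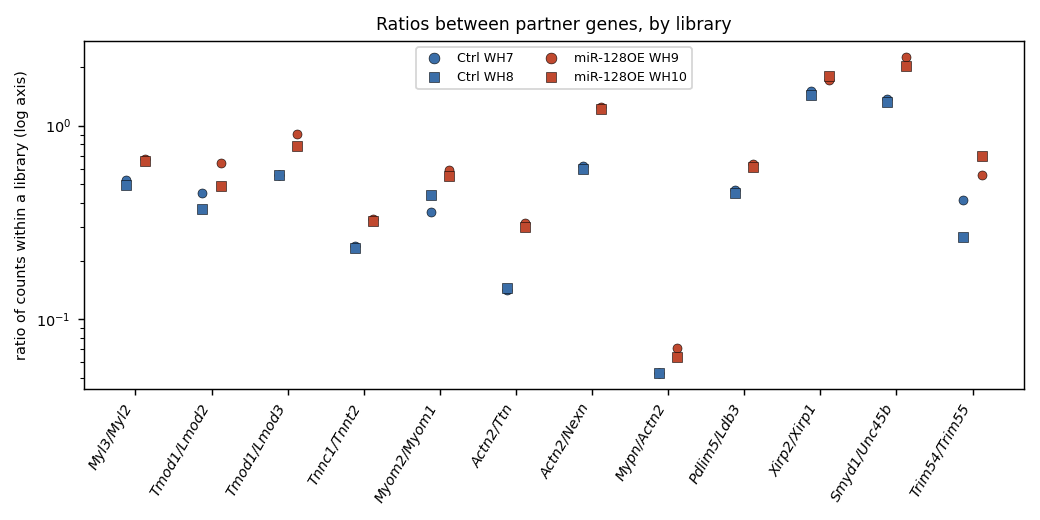
Ratio of counts between partner genes in each of the 4 libraries, on a log axis, for 12 pairs. The ratio of *Actn2* to *Ttn* moved from 0.142 and 0.146 in Ctrl (blue) to 0.316 and 0.300 in miR-128OE (red), and that of *Tmod1* to *Lmod3* from 0.559 and 0.558 to 0.911 and 0.784.

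The Ctrl libraries differed from each other in atrial, fibroblast and macrophage markers, and also in several sarcomere genes. All 8 atrial markers were lower in WH8 than in WH7. *Myl7*, the atrial light chain, had 22940 normalized counts in WH7, 3308 in WH8, 10436 in WH9 and 10317 in WH10, and the summed atrial level was 6990, 1180, 3226 and 3866 CPM. In the same order of libraries, the summed fibroblast level was 10360, 6699, 9181 and 9898 CPM. The summed macrophage level was 103, 70.9, 80.3 and 82.5 CPM. Members also differed more between the Ctrl replicates, with a median absolute log2 ratio of 0.181, than between the miR-128OE replicates, with 0.0595. The wider Ctrl spread was not particular to the members. Over the count table, chi-square of the raw counts per degree of freedom was 11.7 for WH7 and WH8, and 5.55 for WH9 and WH10. Of the 34 members, 29 were higher in WH8 than in WH7, and the share among all tested genes was not computed. *Myom2*, *Lmod2*, *Mybpc3* and *Myl2* were higher in WH8 by 0.43, 0.39, 0.35 and 0.34 on the log2 scale, whereas *Pdlim3* and *Trim54* had log2 ratios of −0.77 and −0.39. The fold changes of the former 4 turn on these libraries. Without WH8, *Myl2* had a log2FC of 0.43, *Myom2* of 0.50, *Mybpc3* of 0.37 and *Lmod2* of 0.39. Without WH7, the log2 fold changes of these genes were 0.09, 0.07, 0.02 and 0.004. The part of atrial tissue, or of fibroblasts and macrophages, in these differences was not tested.

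Promoters were read as the 250 bases before and 50 after each start site (RefSeq, GRCm38.p6), and 27 of the 34 members had 38 such windows. *Lmod3*, *Myom2*, *Tcap*, *Nexn*, *Cryab*, *Xirp1* and *Trim55* were not matched. Sites were searched on both strands. The CArG box, the site of serum response factor, was found in 5 of the 27 members (18.5%), against 1.63% of the 11250 tested genes with a window. The MEF2 site was found in 6 members (22.2%) against 2.28%. The M-CAT box (CATTCC), read by TEAD factors, was found in 11 (40.7%) against 14.8%, the E-box CAGCTG in 9 (33.3%) against 18.4%, TATAAA in 5 (18.5%) against 9.15%, and TGATAA in 2 (7.41%) against 5.42%. TATAAA can overlap a MEF2 site, as it does in *Fhl2*, which also had CArG boxes. CArG and MEF2 matches of several members that rose or fell are shown, with the matching bases in capitals and the coordinates of the printed stretch.
Myl3 CArG box, chr9:110763585-110763610, plus strand: gccaatgcCCTTTTATGGccctgtcc
Ldb3 CArG box, chr14:34588699-34588724, minus strand: gttacagtCCATTTATGGgcgcagca
Fhl2 CArG box, chr1:43163975-43164000, minus strand: gcgtgtgtCCTTATATGGtcaaatga
Fhl2 CArG box, chr1:43196840-43196865, minus strand: tttagagaCCAAAAAAGGcttgcagg
Fhl2 MEF2 site, chr1:43196775-43196800, minus strand: gacatgccTTATTTATAActctgctg
Xirp2 MEF2 site, chr2:67445920-67445945, plus strand: ctcagttcCTAAAAATAGgtgctagg
Ttn MEF2 site, chr2:76982696-76982721, minus strand: ctgaaaggCTAAATTTAGcactgcca
Synpo2l MEF2 site, chr14:20664701-20664726, minus strand: gctcaggtTTATTTTTAGccaggcag
Synpo2l MEF2 site, chr14:20668446-20668471, minus strand: aatttgtaCTATAATTAGttctagga
Of the members with a window, CArG boxes were found in 3 of the 17 that rose, 0 of the 2 that fell and 2 of the 8 that did not pass the test. MEF2 sites were found in 3 of 17, 2 of 2 and 1 of 8. These are matches of letters and not measured binding.

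Other genes of the same structures were read from lists compiled by symbol, with earlier results of these data known. Of the sarcomere isoform genes, 5 of 20 tested genes rose and 3 fell, with a median log2 fold change of 0.09. *Actc1*, *Acta1* and *Myh7*, the 3 with the smallest p-values, had log2 fold changes of 1.34, 1.12 and 1.55 by edgeR's quasi-likelihood test. Their reads can be shared with near-identical actins and with *Myh6*. Of the other Z-disc, M-band and sarcomere genes, 15 of 37 rose and 4 fell, with a median of 0.26. *Pdlim1* (1.06), *Ankrd23* (0.84) and *Fhl1* (0.80), relatives of LIM domain members or partners of titin, had the smallest p-values. Of the other desmin-linked, chaperone and turnover genes, 14 of 23 rose and 2 fell, with a median of 0.52. Here the small heat shock proteins led, with *Hspb7*, the cardiovascular member that binds filamin C, rising from 6399 and 7045 normalized counts to 16691 and 16298 (log2FC 1.30, edgeR adjusted p = 3.35e-05), *Hspb8* by 1.35 and *Hspb1* by 1.06 on the log2 scale. These shares stand beside 16.5% higher and 15% lower among all tested genes.

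Each fold change was recomputed under 12 other settings of scaling, filter, test or library. In the settings that kept every library, each of the 19 members that rose was called again, except *Pdlim3* in DESeq2's test. *Ttn* and *Synpo2l* were called lower in these settings, except with the offset for length and GC content. Where 1 library was left out, the test took its spread from the other group alone, so only fold changes are read. These log2 fold changes were 0.427 to 0.475 for *Csrp3*, 0.281 to 0.468 for *Ldb3* and 0.313 to 0.513 for *Myoz2*.

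**Figure D5:**
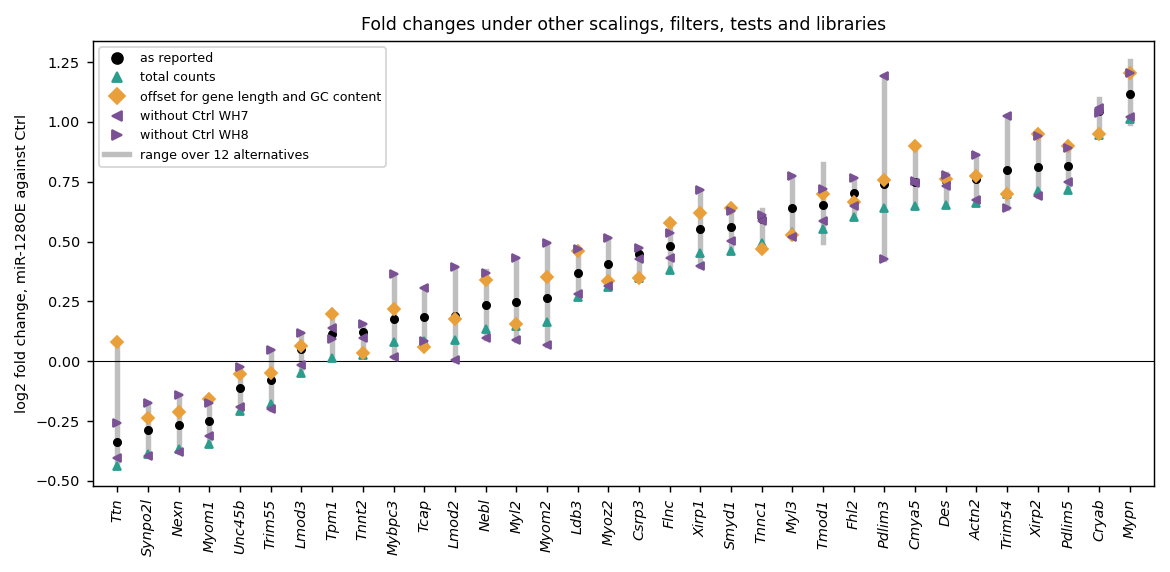
Log2 fold change of each of the 34 genes as reported (black), under total counts (triangles), with an offset for length and GC content (diamonds) and without each Ctrl library (purple), with gray bars for the range over all 12 alternatives. *Ttn* crosses 0 with the offset, at 0.08, and *Pdlim3* has the widest range, from 0.43 to 1.19.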

How the data were processed

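Total RNA of hearts at P7 was sequenced in 4 libraries, 2 Ctrl and 2 miR-128OE. Per the study's methods, the authors discarded reads of low quality, mapped the others with TopHat2 on mm10, and counted reads on known genes with Bioconductor packages. The submitters' processing notes also name bcl2fastq and edgeR. Gene models, strand and the treatment of reads that fit several genes are not given in the sources used here, nor is the doxycycline schedule of these libraries. The deposited values are raw counts per Entrez gene, not normalized.

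Of 24454 genes, 24381 were matched to a symbol, and filterByExpr (minimum count 10, minimum total 15) kept 14266. Counts were tested with edgeR 4.0.16 (R 4.3.3), TMM factors and the quasi-likelihood test, with Benjamini-Hochberg adjustment over all tested genes and a threshold of 0.05. Standard errors were taken as |log2FC| over the root of the F statistic. The biological coefficient of variation was 8.78%. FPKM were computed from the TMM-scaled counts and the union of GENCODE M21 protein-coding exons. Library totals of 8096870 to 14359838 put 3 counts at 0.209 to 0.371 CPM. Tested on simulated data of the same 14266 genes with 200 changed, the test recovered 92% of the genes at an absolute log2 fold change of 1 and 99% at 2, with 0.521% false calls. The simulation gave every gene the same dispersion in both groups, and the data had 4490 called genes. Most members changed by less than 1, so these rates do not carry over to the calls reported here.

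All 34 members were named, as were the 3 genes with the smallest p-values in each list of related genes and the markers that move with a member. The members and lists were chosen with earlier results of these data known. Alternatives were other scalings, filters, tests (DESeq2 1.42.0 among them) and leaving out each library. Some items are not reported here.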

Additional observations from a re-analysis of the deposited data

How the results depend on the processing

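Of 408 recomputed fold changes of members, 373 kept their direction and side of the threshold, 17 newly passed it, 13 no longer passed it and 5 changed sign. The 408 include fits with 1 library in a group, whose side of the threshold rests on the spread of the other group. With every library kept, the number of members called higher stayed between 17 and 21. The number called lower, 2 as reported, was 4 with upper-quartile factors, total counts, no filter on low counts or DESeq2, and 0 with the offset for gene length and GC content or at an adjusted p under 0.01. Leaving out 1 library gave 0 to 4 members called lower (4 without WH7, 1 without WH8, 0 without WH9 or WH10) and 1564 to 5038 called genes in all, against 4490 with every library (1564 without WH9, 2285 without WH10). At an adjusted p under 0.01, 2314 genes were called. The median of the members was 0.33 with total counts, where the median of all tested genes was −0.11. DESeq2 called 1699 genes higher and 1320 lower. The sign changed for *Lmod3* with total counts (−0.05) and without WH7 (−0.015), for *Ttn* with the offset (0.081), and for *Trim55* without WH8 (0.045) and without WH10 (0.011). Leaving out 1 library gave −0.015 to 0.118 for *Lmod3* and −0.20 to 0.045 for *Trim55*. Apart from the offset, which was built from length and GC content, the cause was not tested. No paired analysis was possible because the library numbers do not pair Ctrl with miR-128OE samples. With 2 libraries a group, small changes of variable genes such as *Pdlim3* are limited by the replicate spread.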

Other observations

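Some genes of the same structures fell, and are named here after their values were seen. *Speg*, a striated muscle kinase, had 5102 and 5756 normalized counts in Ctrl and 3572 and 3784 in miR-128OE libraries (log2FC −0.56, edgeR adjusted p = 0.00181). Its exons sum to 11985 nt. *Ankrd1*, a stress-responsive partner of titin and myopalladin, had 18765 and 18733 normalized counts in Ctrl and 11718 and 14735 in miR-128OE libraries (log2FC −0.50, edgeR adjusted p = 0.0094), opposite in direction to its partner *Mypn*.

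*Ccdc63*, whose exons overlap *Myl2* on the other strand, was covered by 35 and 26 raw counts for Ctrl, against 336 and 334 for miR-128OE (log2FC 3.17, SE 0.19, edgeR adjusted p = 1.3e-05). Without strand its reads cannot be told apart from those of *Myl2*, which were far more numerous. Across the members, Spearman's rho between log2 fold change and exon length was −0.02 (34 genes), and across all tested genes with a length it was −0.14 (14164 genes). These are correlations across genes, which are not independent replicates.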
